A study of Mus musculus with 2 samples.

Results

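The genes described here are 33 members of the glycolytic pathway and of the response to low oxygen, taken by name from the 32285 genes measured in single GR1+ cells of mouse 4T1 tumours. Each member was found in the gene list, Aldoa under a pair of identifiers of which the second held at most 1 unique molecular identifier (UMI) per class and library. The members run from glucose uptake (Slc2a1, Slc2a3) and the glycolytic enzymes, through lactate production and export (Ldha, Slc16a3), to the oxygen sensor (Hif1a, Egln1, Egln3) and genes known as targets of hypoxia-inducible factor 1 (HIF-1).

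The study asked how GR1+ myeloid cells differ between tumours that do and do not respond to antibody blockade of the checkpoint receptor PD-1. 4T1P is the parental 4T1 line, a BALB/c mouse mammary carcinoma whose tumours do not respond. 4T1M is a line derived from it by chemical mutagenesis, whose tumours respond, so it stands for 1 mutagenized derivative and not for responding tumours at large. Tumours of both lines were grown in BALB/c mice aged, per the labels, 6 to 8 weeks and taken without treatment, the cells of 5 mice were pooled per line per the series' design text, GR1+ cells were enriched by magnetic positive selection, and each pool gave 1 droplet library. The paper gives another number of pooled mice and another age, so both are uncertain. Mice, pooling and selection were the same in both groups, so the groups differ in the tumour line and in the library. With 1 library per line there is no spread between animals, no test was made, and intervals below are 95% counting intervals that cover counting error only.

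Glycolysis splits glucose into pyruvate in the cytosol and yields ATP without oxygen, with lactate as the end product when pyruvate is not passed on to the mitochondria. HIF-1 is a transcription factor whose alpha subunit, encoded by Hif1a, is marked for destruction by oxygen-dependent prolyl hydroxylases. When oxygen is scarce the subunit persists, binds short elements in DNA and raises glucose transporters, glycolytic enzymes and its own hydroxylases. Neutrophils are known to rely on glycolysis for most of their ATP, and tumour macrophages in poorly perfused regions are known to carry a HIF-1 programme.

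The core letters of the hypoxia response element, ACGTG or GCGTG, were looked for on both strands of RefSeq promoters (build GRCm38.p6, 250 bases before to 50 after the annotated start). For a gene with several entries only the first listed was counted. Of the 33 members 30 had an entry, and 24 of the 30 (80%) held at least 1 match, beside 11836 of 27025 promoters in all (43.8%). Of the members without a match, Hk1, Aldoa, Pkm and Mxi1 had further entries that were not counted. For ACGTG alone the shares were 17 of 30 (56.7%) and 5315 of 27025 (19.7%). Members' promoters were richer in CG pairs, with a median of 22.5 against 7, and among promoters with 15.25 to 27 CG pairs the shares were 12 of 15 members (80%) against 69.2% of 5273, and for ACGTG 8 of 15 (53.3%) against 28.4%. The promoters of 4 members are shown because these genes had, with Ndrg1, the highest ratios among macrophages, as described further on. Of these, Adm rests on few UMIs, and its place among them carries no weight. Ndrg1, Slc2a3 and Bnip3l had no entry. All are printed 5′ to 3′ on the gene's own strand, with matches on either strand in capitals; a CACGTG run reads as ACGTG both ways. The windows are Egln3 at chr12:54203825-54204124 on the minus strand, Ankrd37 at chr8:45999801-46000100 on the minus strand, Bnip3 at chr7:138909457-138909756 on the minus strand, and Adm at chr7:110627407-110627706 on the plus strand. Each window spans the annotated RefSeq start, so its last 50 bases are transcribed. A match is a run of letters and not a measured binding site.
Egln3: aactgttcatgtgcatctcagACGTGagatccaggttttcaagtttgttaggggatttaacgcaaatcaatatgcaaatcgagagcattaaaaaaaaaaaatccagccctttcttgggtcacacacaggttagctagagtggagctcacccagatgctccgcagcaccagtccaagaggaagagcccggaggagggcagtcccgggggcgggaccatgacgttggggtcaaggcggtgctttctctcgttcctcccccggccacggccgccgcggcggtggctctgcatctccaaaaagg
Ankrd37: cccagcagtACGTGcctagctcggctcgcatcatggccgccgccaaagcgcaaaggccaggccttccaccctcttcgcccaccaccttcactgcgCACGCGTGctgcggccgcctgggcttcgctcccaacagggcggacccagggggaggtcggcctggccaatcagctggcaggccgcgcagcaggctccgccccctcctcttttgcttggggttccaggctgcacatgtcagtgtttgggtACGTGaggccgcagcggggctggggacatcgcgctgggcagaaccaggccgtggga
Bnip3: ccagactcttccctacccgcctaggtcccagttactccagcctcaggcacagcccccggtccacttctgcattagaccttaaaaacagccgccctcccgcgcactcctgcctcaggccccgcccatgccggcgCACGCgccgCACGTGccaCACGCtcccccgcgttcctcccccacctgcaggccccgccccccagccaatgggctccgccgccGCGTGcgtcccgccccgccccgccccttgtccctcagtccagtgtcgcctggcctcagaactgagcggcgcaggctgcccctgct
Adm: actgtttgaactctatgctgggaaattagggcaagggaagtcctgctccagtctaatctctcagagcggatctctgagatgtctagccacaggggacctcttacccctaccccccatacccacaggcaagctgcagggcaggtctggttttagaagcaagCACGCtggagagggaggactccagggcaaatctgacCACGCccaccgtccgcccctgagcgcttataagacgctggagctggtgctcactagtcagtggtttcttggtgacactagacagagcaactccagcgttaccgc

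The 4T1P library held 2947 barcodes and 21855657 UMIs, and the 4T1M library 5004 barcodes and 24303957 UMIs. Retained barcodes numbered 1726 and 3461, all with between 500 and 5000 genes detected and no more than 10% of UMIs from mitochondrial genes. Neutrophils were cells with at least 1.5% of UMIs from S100a8 and S100a9 and under 0.5% from C1qa, C1qb, C1qc and Apoe. Macrophages were cells under the first limit with at least 0.3% from those 4 genes with Csf1r, Cd68 and Fn1. This gave 612 and 1686 neutrophils with a median of 3054.5 and 2957.5 UMIs, and 798 and 976 macrophages with a median of 9727 and 9213.5 UMIs. The names were checked on markers that the rule does not use. The other 13 neutrophil markers summed to 23724 and 19542 UMIs per 1000000 (CPM) in neutrophils against 538 and 689 in macrophages, and the other 8 macrophage markers to 20326 and 18597 CPM in macrophages against 2018 and 1685 in neutrophils. Carcinoma and epithelial markers summed to 81.1 CPM in 4T1P and 19.0 CPM in 4T1M neutrophils, and to 31.6 and 36.6 CPM in macrophages. The libraries shared 5 barcodes, 3 of them retained in both.

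Members took a larger share of the RNA of neutrophils than of macrophages in both libraries. They made up 1.45% of neutrophil UMIs in 4T1P and 1.43% in 4T1M, against 1.09% and 1.01% in macrophages. After each cell was thinned to 1000 UMIs, the median neutrophil held 13 member UMIs in both libraries, from 9 members, and the median macrophage 10 in 4T1P and 9 in 4T1M, from 7 members. A cell with no member UMI was rare at this depth, with 2 and 6 neutrophils and 6 and 1 macrophages.

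**Figure D1:**
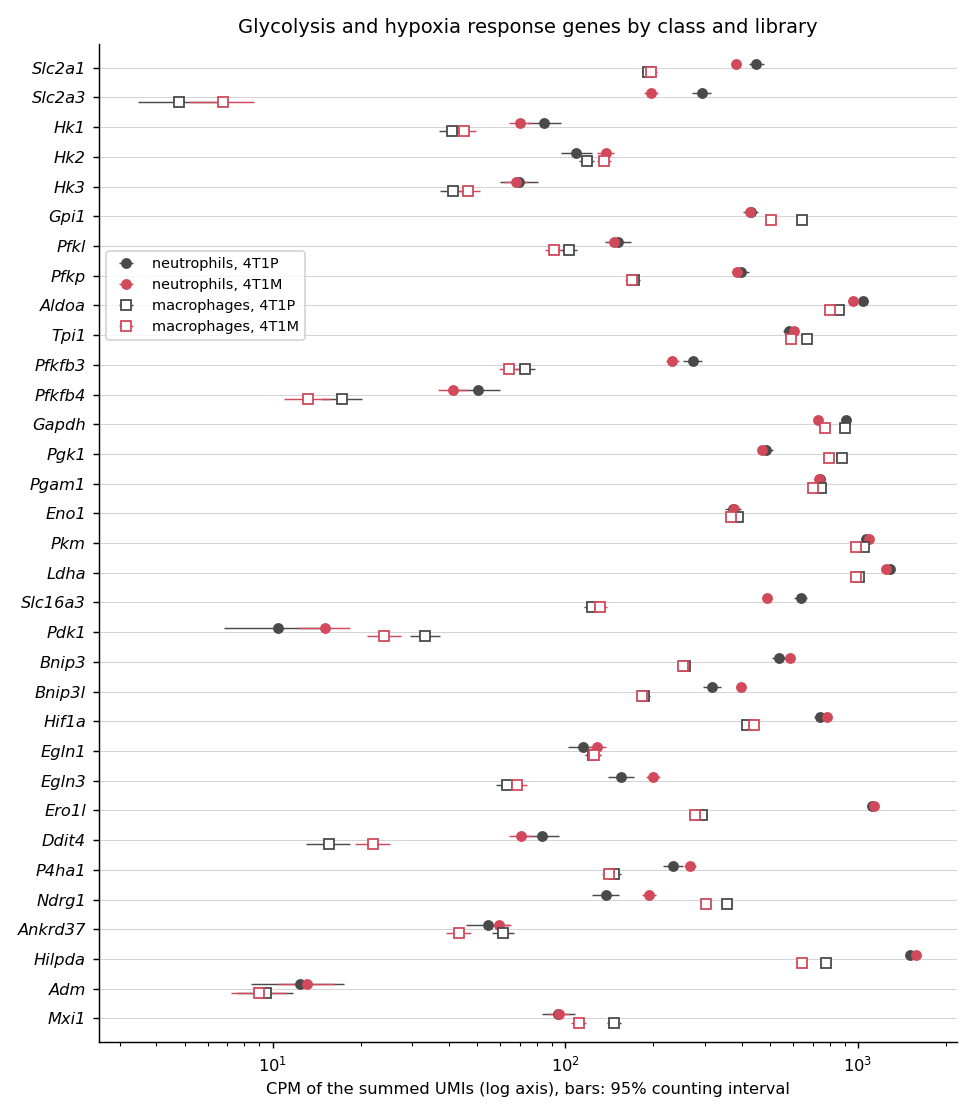
CPM of the summed UMIs of each member (log axis) in neutrophils (circles) and macrophages (squares) of the 4T1P (dark) and 4T1M (red) libraries, with 95% counting intervals as bars. Slc2a3 lies at 196 to 292 CPM in neutrophils and 4.79 to 6.74 CPM in macrophages, while Eno1 lies at 369 to 387 CPM in all 4 groups.

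Between classes, 0 members were higher and 9 were lower in macrophages past a log2 ratio of 1 in both libraries. Over the 9172 genes counted, 47.2% were higher and 9.06% lower by this rule. Other genes of the same pathways, described further on, did not share the one-sided count of the members. Of 18 other glycolysis genes counted 8 were higher and 4 lower, and of 26 other hypoxia genes 7 were higher and 3 lower. In 4T1P alone 2 members were higher and 11 lower (51.6% and 9.99% of genes), and in 4T1M alone 0 and 11 (47.9% and 11.1% of genes). The median log2 ratio of macrophages over neutrophils was -0.56 in 4T1P and -0.54 in 4T1M for the members, beside 1.11 and 1.02 for all genes counted. The position of 0 on this scale depends on the scaling, since TMM scaling moves every ratio by -0.93 in 4T1P and -0.89 in 4T1M, and DESeq2 size factors by -1.08 and -1.01. Relative to the median gene, 31 of 33 members lay lower in macrophages in 4T1P and 33 of 33 in 4T1M. That median is over genes with at least 100 UMIs in both classes and libraries together. Macrophages held 8767210 UMIs against 2502947 in neutrophils in 4T1P, and 9343315 against 6580005 in 4T1M. Genes can thus be counted through macrophages alone, and the median and shares over all genes can lean towards macrophages.

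Slc2a3 encodes GLUT3, a glucose transporter of high affinity, and it separated the classes more than any other member. It stood at 292 CPM (731 UMIs) in 4T1P neutrophils and 196 CPM (1292 UMIs) in 4T1M neutrophils. In macrophages it stood at 4.79 CPM (42 UMIs) and 6.74 CPM (63 UMIs). The log2 ratio of macrophages over neutrophils was -5.93 (-6.41 to -5.48) in 4T1P and -4.86 (-5.25 to -4.50) in 4T1M. At 1000 UMIs per cell, 17.8% and 14.8% of neutrophils held a Slc2a3 UMI against 0.65% and 1.28% of macrophages. Without thinning the shares were 37.6% and 32.6% against 2.63% and 4.10%, although macrophages were the deeper cells. The 13 neutrophil markers outside the class rule summed to 538 and 689 CPM in macrophages against 23724 and 19542 CPM in neutrophils. They varied, from Ly6g with 3 and 12 UMIs in all macrophages together to Hdc with 156 and 275 and G0s2 with 355 and 767. The part of free RNA in the few Slc2a3 UMIs of macrophages was not tested. Slc2a1, which encodes the widely used transporter GLUT1, differed less, with 449 and 383 CPM in neutrophils and 192 and 196 CPM in macrophages.

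Slc16a3 and the regulators of fructose 2,6-bisphosphate followed the same direction. Slc16a3, which encodes the lactate exporter MCT4, stood at 636 and 490 CPM in neutrophils and 123 and 131 CPM in macrophages. Its log2 ratio was -2.37 in 4T1P and -1.90 in 4T1M. Slc16a1 and Slc16a7, of the same gene family and not members, lay on the other side. Their log2 ratios were 3.13 and 2.44, and 5.36 and 3.48, on at most 14 neutrophil UMIs per library. Pfkfb3 and Pfkfb4 encode enzymes that set fructose 2,6-bisphosphate, the activator of phosphofructokinase. Pfkfb3 stood at 272 and 232 CPM in neutrophils and 72.9 and 64.2 CPM in macrophages. Pfkfb4 stood at 50.3 and 41.3 CPM in neutrophils and 17.2 and 13.2 CPM in macrophages. The log2 ratios were -1.90 and -1.85 for Pfkfb3 and -1.55 and -1.65 for Pfkfb4. The platelet-type phosphofructokinase Pfkp completed the glycolytic members past the limit, with log2 ratios of -1.22 and -1.20.

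Of the hypoxia targets, Ero1l, Ddit4, Egln3 and Bnip3 were lower in macrophages past the limit in both libraries. Ero1l, an oxidase of protein folding in the endoplasmic reticulum, stood at 1116 and 1135 CPM in neutrophils and 294 and 278 CPM in macrophages. Ddit4, a stress-induced inhibitor of mTORC1 signalling, stood at 83.1 and 70.7 CPM in neutrophils and 15.5 and 21.9 CPM in macrophages. Egln3, an oxygen-dependent hydroxylase of the HIF-1 alpha subunit, stood at 155 and 199 CPM in neutrophils and 63.0 and 68.5 CPM in macrophages. Bnip3 and Bnip3l encode receptors that tag mitochondria for removal, and Bnip3 stood at 538 and 586 CPM in neutrophils against 256 and 252 CPM in macrophages. Members close to the limit included Hilpda, which encodes a lipid droplet protein that restrains fat breakdown, with log2 ratios of -0.95 and -1.29, Bnip3l with -0.78 and -1.12, and Slc2a1 with -1.23 and -0.97.

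The enzymes of the middle and lower pathway were close to equal in CPM. Gapdh, Pgam1, Eno1 and Pkm, which carry glyceraldehyde 3-phosphate towards pyruvate, had log2 ratios between -0.15 and 0.07 in both libraries. Relative to the median gene, which can lean towards macrophages as stated above, all 4 lay lower in macrophages. Pgk1, phosphoglycerate kinase, was higher in macrophages by CPM with log2 ratios of 0.86 and 0.76 and turned to -0.07 and -0.14 under TMM scaling. Ndrg1, a gene of the hypoxia and stress response, was higher in macrophages with log2 ratios of 1.38 and 0.65, of which the 4T1M value turned to -0.24 under TMM scaling. Pdk1, the kinase that holds pyruvate back from the mitochondria, had log2 ratios of 1.68 and 0.67, of which the 4T1M value turned to -0.23 under TMM scaling. The ratios of Gpi1 (0.58 and 0.23) and of Mxi1 (0.63 and 0.22), a MYC antagonist, turned negative under TMM scaling in both libraries. The remaining members lay between -1.04 and 0.20 in both libraries. Hk1 (-1.04 and -0.64) was lowest and Tpi1 (0.20 and -0.03) highest in 4T1P. In 4T1M P4ha1 (-0.67 and -0.91) was lowest and Hk2 (0.12 and -0.01) highest. Among the others Hif1a had -0.82 in both, Hk3 -0.75 and -0.54, Pfkl -0.56 and -0.68, Ldha -0.34 and -0.33, and Aldoa -0.28 and -0.26.

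Families of isozymes gave a comparison that no scaling touches, since shares are taken within the family's own UMIs. Slc2a3 made up 39.4% (37.2 to 41.7) of the transporter UMIs in 4T1P neutrophils and 33.9% (32.4 to 35.4) in 4T1M neutrophils, against 2.44% and 3.33% in macrophages. The inducible hexokinase Hk2, which traps glucose in the cell as its phosphate, made up 41.4% (37.6 to 45.3) and 49.9% (47.5 to 52.2) of hexokinase UMIs in neutrophils and 58.9% (56.6 to 61.2) and 59.7% (57.6 to 61.8) in macrophages. Egln3 made up 57.5% and 60.7% of the UMIs of the hydroxylase pair in neutrophils and 33.6% and 35.4% in macrophages, where Egln1 was the larger part. The share of Pfkp was 72.5% and 72.6% against 62.5% and 64.9%. The shares of Pfkfb3 and of Bnip3 within their pairs stayed within 5 percentage points between classes.

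**Figure D2:**
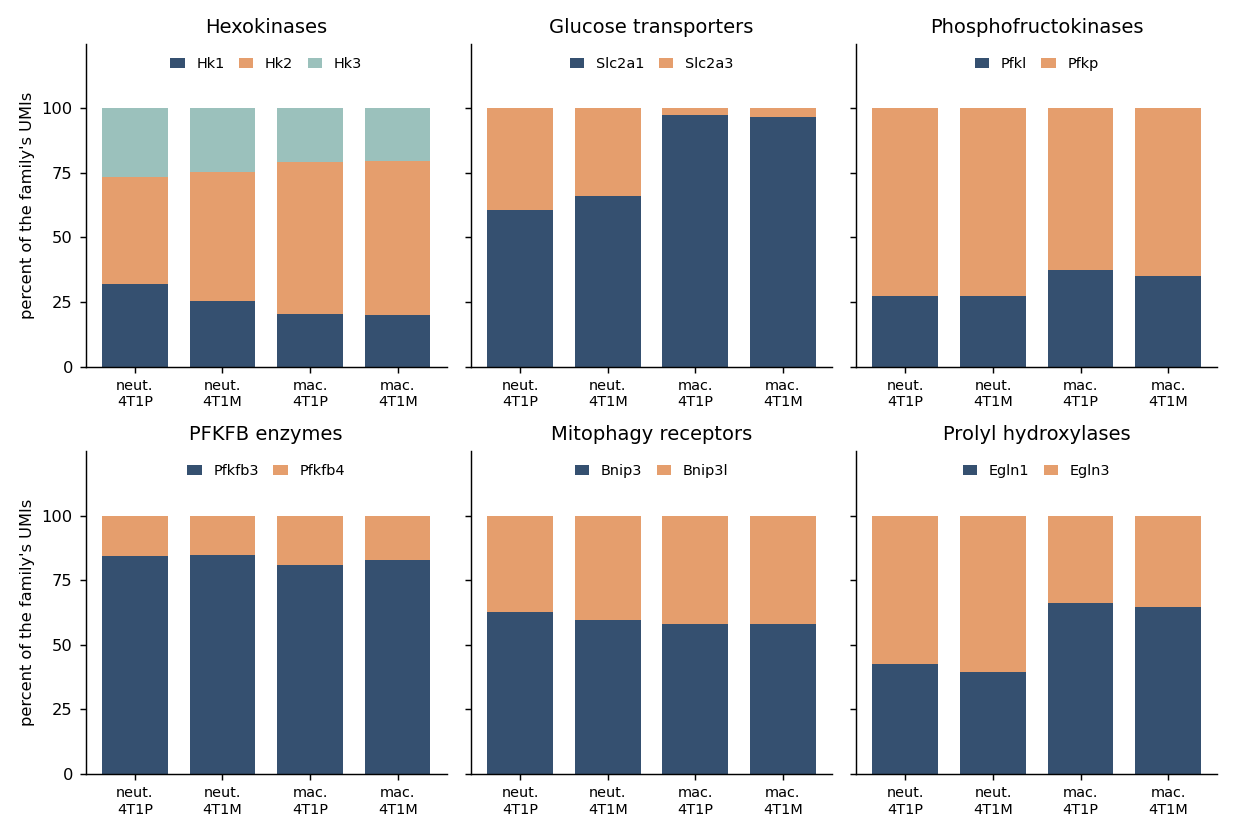
Share of the UMIs of each family (percent) held by its members, in neutrophils (neut.) and macrophages (mac.) of each library, 1 stacked bar per class and library. Slc2a3 holds 39.4% and 33.9% of transporter UMIs in neutrophils and 2.44% and 3.33% in macrophages.

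Between the tumour lines the members as a list moved little in neutrophils. Past a log2 ratio of 0.5, 1 member of 33 was higher in 4T1M (10.2% of the 4954 genes counted were) and 1 was lower (2.99% were). The median log2 ratio of 4T1M over 4T1P was 0.00, beside 0.04 for all genes counted, with 17 members above 0 and 16 below. TMM scaling moved the ratios by -0.04 and DESeq2 scaling by -0.05.

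The member past the limit on the lower side was Slc2a3, which went from 292 to 196 CPM, a log2 ratio of -0.57 (-0.70 to -0.44). The ratio ranged from -0.65 to -0.55 over the 9 alternative treatments of cells, scaling and depth. Inside the limit, Slc16a3 went from 636 to 490 CPM with a ratio of -0.38 (-0.46 to -0.29), and Slc2a1 from 449 to 383 CPM with a ratio of -0.23 (-0.33 to -0.13). Gapdh went from 911 to 731 CPM with a ratio of -0.32 (-0.39 to -0.24). The other lower enzymes, Pgk1, Pgam1, Eno1 and Pkm, had ratios between -0.04 and 0.04.

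None of the oxygen sensing genes, mitophagy receptors and other hypoxia targets passed the limit in neutrophils. Ndrg1 came nearest and went from 137 to 193 CPM with a log2 ratio of 0.49 (0.31 to 0.66). Egln3 went from 155 to 199 CPM with 0.36 (0.20 to 0.53), and Bnip3l from 318 to 397 CPM with 0.32 (0.21 to 0.44), while Ero1l had 0.02, Mxi1 0.01 and Ddit4 -0.23. Hk2 had 0.33 (0.13 to 0.53). Pdk1 was the member past the limit on the higher side, but on 26 and 99 UMIs, with a ratio of 0.53 (-0.10 to 1.22) that includes 0. Hif1a itself went from 740 to 781 CPM, a ratio of 0.08. The other 16 members lay between -0.28 (Pfkfb4) and 0.19 (P4ha1).

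In macrophages, 0 members were higher past 0.5 (4.57% of 8571 genes were) and 1 was lower (4.29% were). The median log2 ratio was -0.07 beside -0.03 for all genes counted, with 10 members above 0 and 23 below. Ankrd37, a small ankyrin repeat protein and a known HIF-1 target, was the member past the limit and went from 61.1 to 43.1 CPM with a ratio of -0.50 (-0.69 to -0.31). Its ratio ranged from -0.72 to -0.29 over the alternatives. Ddit4 lay at the opposite edge, from 15.5 to 21.9 CPM with 0.50 (0.18 to 0.82), and ranged from 0.07 to 0.66. Pdk1 went from 33.2 to 24.0 CPM with -0.47 (-0.73 to -0.21), Mxi1 from 146 to 111 CPM with -0.40 (-0.52 to -0.28), and Gpi1 from 642 to 502 CPM with -0.35 (-0.41 to -0.30). Hilpda went from 778 to 644 CPM with -0.27 (-0.32 to -0.22). The other 27 members lay between -0.39 (Pfkfb4) and 0.49 (Slc2a3, on 42 and 63 UMIs). Erythroid markers (hemoglobin genes and Alas2) summed to 4.39 CPM in 4T1P and 152 CPM in 4T1M neutrophils and to 430 and 424 CPM in macrophages. Their part in these ratios was not tested.

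**Figure D3:**
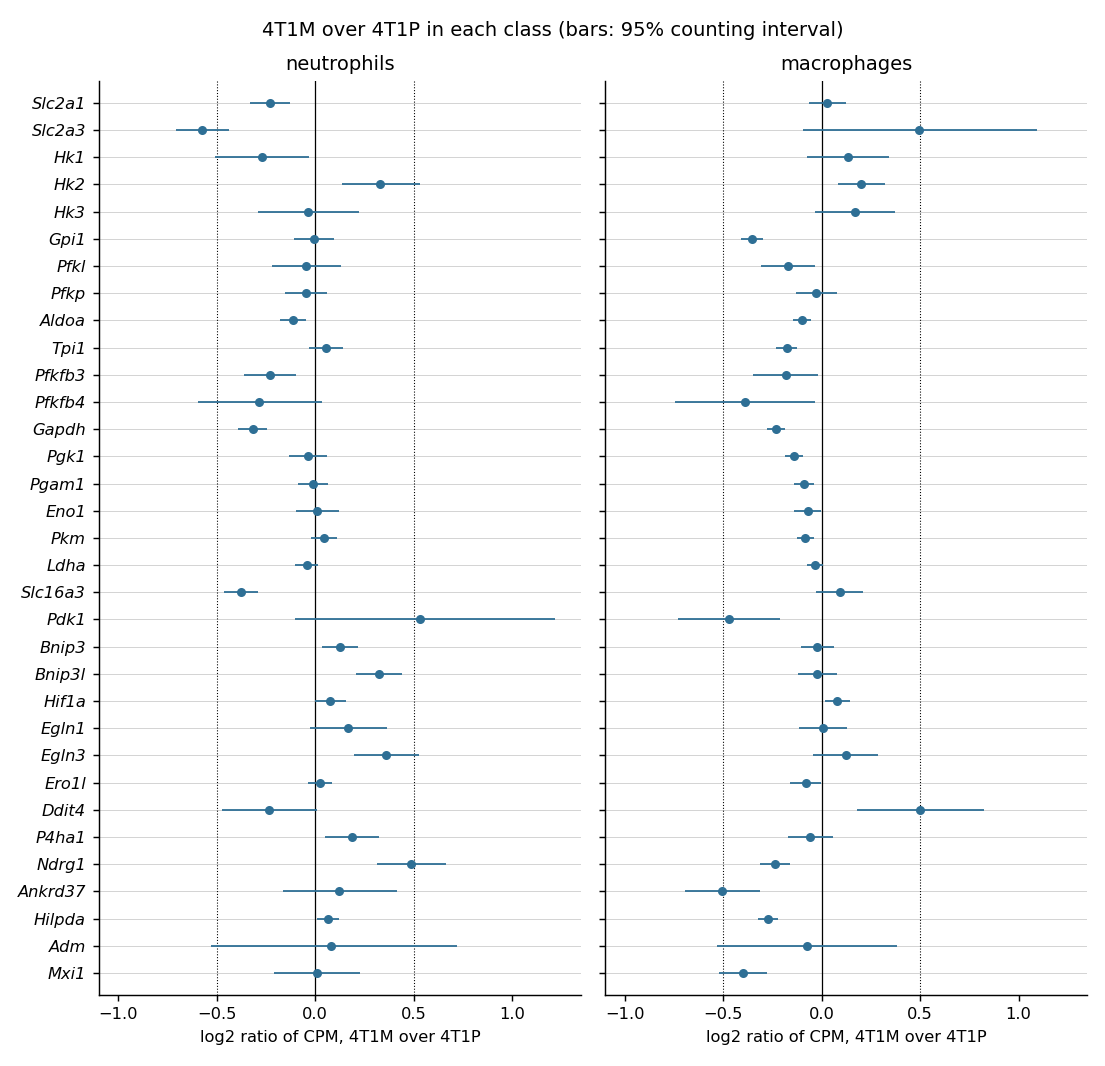
Log2 ratio of CPM, 4T1M over 4T1P, for each member in neutrophils (left) and macrophages (right), with 95% counting intervals as bars and dotted lines at the limits of -0.5 and 0.5. Slc2a3 at -0.57 in neutrophils and Ankrd37 at -0.50 in macrophages are the members past the lower limit.

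Other genes of the same pathways, 29 of glycolysis and 32 of the hypoxia response with Gbe1 on both lists, gave the surroundings. In neutrophils 0 of the 10 glycolysis genes counted passed 0.5 in either direction, and Txnip, an inhibitor of glucose uptake, came nearest at 0.47. Of the 16 hypoxia genes counted, 1 was higher, Slc7a11, which encodes a cystine transporter and went from 564 to 831 CPM with 0.56 (0.47 to 0.64). The 1 that was lower was Jmjd6, from 38.4 to 26.4 CPM with -0.54 (-0.90 to -0.16). Inside the limit, Bhlhe40 had 0.38 and Gbe1 0.35 on the higher side, and on the lower side G6pdx, the first enzyme of the pentose phosphate pathway, had -0.36 and Insig2 -0.28.

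In macrophages 0 of the 17 other glycolysis genes counted passed 0.5 in either direction, with Pdk3 at 0.46, Ldhb at 0.43 and Slc16a7 at -0.47 at the ends. Of the 26 hypoxia genes counted, 1 was higher, Nampt, an enzyme of NAD salvage that went from 224 to 316 CPM with 0.50 (0.42 to 0.58). The 2 that were lower were Epas1, which encodes the HIF-2 alpha subunit and went from 14.1 to 7.92 CPM with -0.84, and Rora, from 24.2 to 15.7 CPM with -0.62. The list medians were -0.04 for glycolysis and 0.05 for hypoxia.

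Within a class, members could also be compared between ranges of cells. Cells were ranked by the share of their UMIs from a marker set that holds no member, and the upper tertile was set against the lower in each library. A member was counted only if it passed a log2 ratio of 0.5 in both libraries. Tertiles of a score are ranges of cells and not cell types. The cells of both tertiles come from the same library, so the libraries give a pair of values for each ratio. Under 100 UMIs and so not counted were Pdk1 and Adm in neutrophils and Slc2a3 in macrophages. The 100 UMIs are summed over both tertiles and libraries, so a scarce member can be counted through the tertile where it is high.

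**Figure D4:**
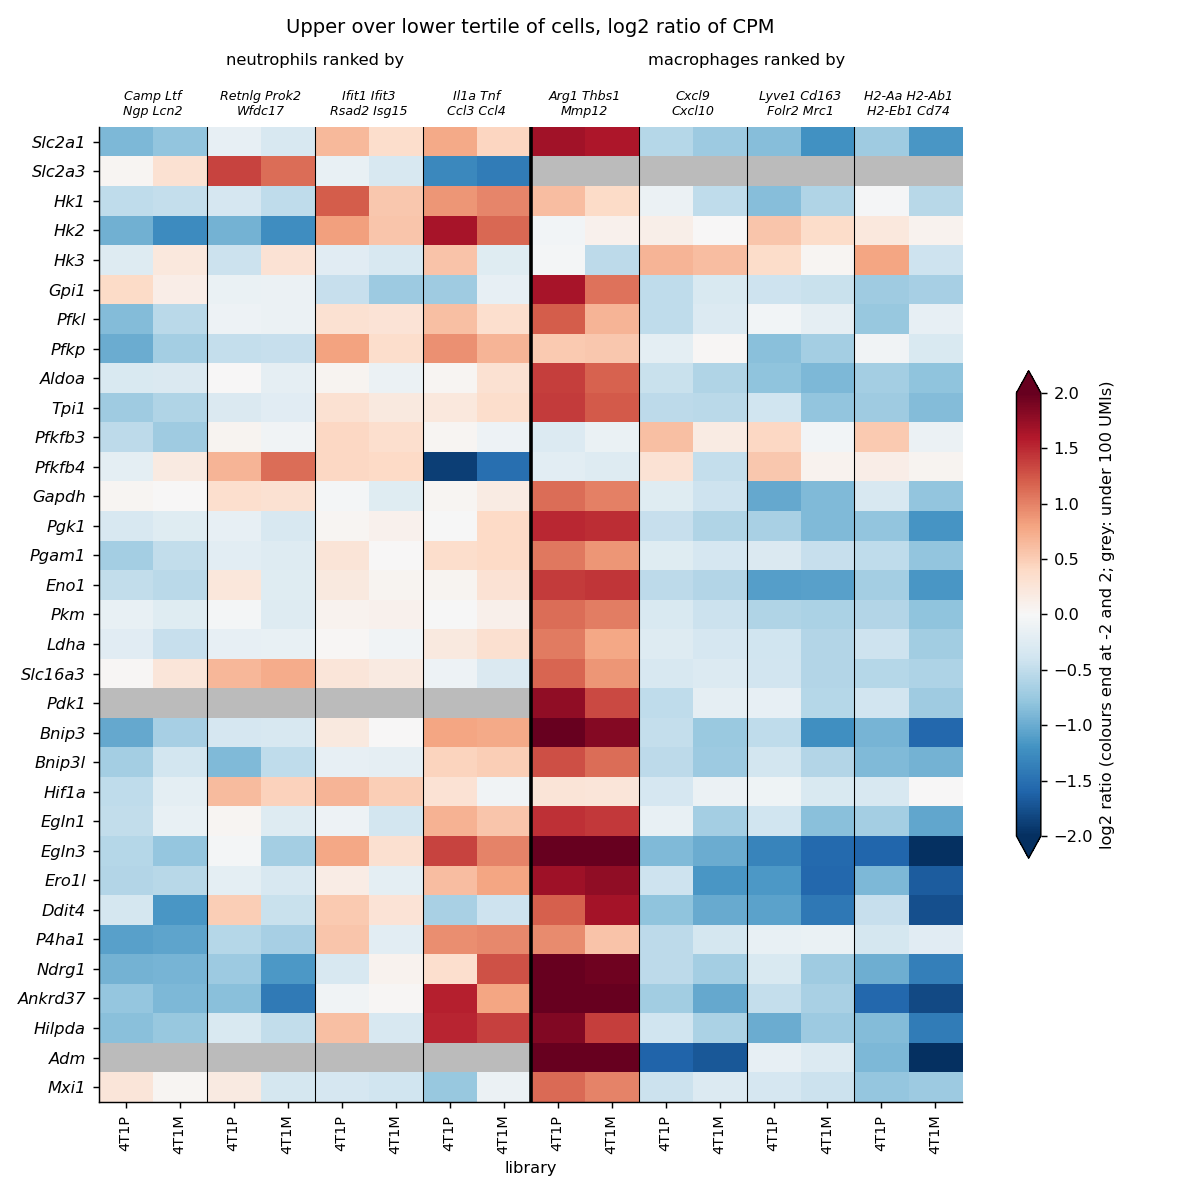
Log2 ratio of CPM, upper over lower tertile of cells, for each member (rows) and marker set (columns, 4T1P then 4T1M), with neutrophils left and macrophages right of the thick line. Colours end at -2 and 2 and grey marks members under 100 UMIs. In the Arg1, Thbs1, Mmp12 columns 26 of 32 members counted are past 0.5 in both libraries.

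Macrophages ranked by Arg1, Thbs1 and Mmp12 gave the widest differences. Of 32 members counted, 26 were higher in the upper tertile in both libraries and 0 were lower. Of the 7642 genes counted, 6.25% were higher and 11% lower. Adm is among the 26 and, as described below, adds no weight to that count. The members' median log2 ratio was 1.25 in 4T1P and 1.11 in 4T1M, beside -0.14 and -0.11 for all genes. Arg1 itself encodes arginase 1, an enzyme that depletes arginine and is a known mark of myeloid cells that restrain T cells. The other genes of the pathways moved with the members, with 16 higher and 0 lower of 24 hypoxia genes counted and 8 higher and 2 lower of 16 glycolysis genes.

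Of the members counted, 5 hypoxia targets had the highest ratios along this range in both libraries. Egln3, whose promoter is shown above, stood at 15.8, 49.6 and 115 CPM in the lower, middle and upper tertile in 4T1P and at 23.8, 38.9 and 133 CPM in 4T1M, with upper over lower log2 ratios of 2.86 (2.39 to 3.36) and 2.48 (2.10 to 2.88). Ndrg1 went from 112 to 661 CPM in 4T1P and from 138 to 535 CPM in 4T1M. Bnip3 went from 86.1 to 450 CPM and from 123 to 438 CPM. The upper tertile was the highest of the 3 for each of these genes in both libraries. Ankrd37 went from 18.2 to 97.4 CPM and from 17.8 to 77.9 CPM. Adm encodes the vasodilator peptide adrenomedullin. It went from 5 to 68 UMIs in 4T1P, a ratio of 3.49 (2.20 to 5.16). In 4T1M it went from 2 to 77 UMIs, a ratio of 4.93 (3.03 to 8.01). Adm passed the minimum for counting through its upper tertile. Its place in this ranking and in the count of higher members thus adds no weight.

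The glycolytic members counted moved by smaller ratios than these 5 targets. Slc2a1 went from 91.6 to 292 CPM in 4T1P and from 105 to 322 CPM in 4T1M, and Pgk1 from 459 to 1309 CPM and from 443 to 1236 CPM. Hilpda, a hypoxia target, lay in the same span, from 328 to 1181 CPM and from 371 to 970 CPM. A few members stood still on this scale. Hif1a, whose product is regulated mainly as a protein, had ratios of 0.26 and 0.25, Hk2 of -0.05 and 0.09, Pfkfb3 of -0.27 and -0.13, and Pfkfb4 of -0.21 and -0.25. Hk3, the hexokinase typical of myeloid cells, had -0.05 and -0.52. Hk1 had 0.61 and 0.38, past the limit in 4T1P and not in 4T1M. Within the hydroxylase pair, the share of Egln3 went from 19.1% through 30.9% to 38.4% in 4T1P and from 24.7% through 28.7% to 40.7% in 4T1M, and the share of Bnip3 over Bnip3l went from 44.3% to 62.9% and from 50.2% to 62.3%.

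Other measures moved along the same range of macrophages. Median depth went from 7552.5 to 11017.5 UMIs in 4T1P and from 5896 to 10311 UMIs in 4T1M, the median mitochondrial share from 5.24% to 4.04% and from 4.73% to 3.15%, and the summed macrophage markers from 44136 to 31708 CPM and from 42904 to 28702 CPM. With cells ranked within 5 classes of depth the count was again 26 of 32, and so it was relative to the median gene. With cells thinned to 1000 UMIs it was 20 of the 23 members still counted. Ranking macrophages by depth alone gave 3 members higher and 0 lower of 32, where 16.7% of genes were higher and 8.96% lower.

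The 3 remaining macrophage sets ran the other way. Ranked by the class II antigen presentation genes H2-Aa, H2-Ab1, H2-Eb1 and Cd74, 0 of 32 members were higher and 19 lower in the upper tertile, where 5.61% of the 7689 genes counted were higher and 6.37% lower. Egln3 went from 92.9 to 30.9 CPM in 4T1P and from 124 to 23.3 CPM in 4T1M, log2 ratios of -1.59 and -2.41. Ankrd37 had ratios of -1.58 and -1.80, Bnip3 of -0.94 and -1.56, Pgk1 of -0.79 and -1.18, and Slc2a1 of -0.71 and -1.16, while Hk2 (0.20 and 0.07) and Pfkfb4 (0.14 and 0.06) were near 0. With cells thinned 8 of the 23 members counted were lower. Median depth went from 8721.5 to 11587.5 UMIs and from 6444 to 11106 UMIs along this range, and the summed macrophage markers, which include Cd74, from 30710 to 52089 CPM and from 21770 to 52939 CPM.

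Ranked by Lyve1, Cd163, Folr2 and Mrc1, genes of resident-type macrophages, 0 of 32 members were higher and 13 lower, where 10.7% of 7437 genes were higher and 4.07% lower. Egln3 had log2 ratios of -1.33 and -1.55 and Ero1l of -1.14 and -1.57. The lower tertile was shallow here, with a median of 2482 and 2916 UMIs against 11608 and 12395 in the upper. In 4T1M all 325 cells of the lower and 117 of 326 of the middle tertile scored 0, so that cut fell among tied cells. With cells thinned the count of lower members was 8 and Egln3 turned to 0.10 in 4T1P, and with stricter classes the count was 5. Ranked by the interferon-induced chemokines Cxcl9 and Cxcl10, 1 member was higher, Hk3 with 0.68 and 0.62, and 9 were lower, where 4.06% of 7587 genes were higher and 2.72% lower. All cells of that lower tertile had neither chemokine, and their median depth was 4149 and 4086 UMIs against 13718.5 and 11810. In the middle tertile 166 of 266 and 163 of 326 cells also had neither. The cut between lower and middle tertile thus fell among tied cells. With cells thinned 0 members passed in either direction, and at a mitochondrial limit of 5% the count of lower members was 1.

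In neutrophils the inflammatory and mature sets had members past the limit in both directions. In both sets the share of members that were lower was smaller than that of all genes counted. The granule set moved 13 of 31 lower and 0 higher, where 23.9% of genes were lower and 7.3% higher. That count fell under some of the treatments given below. Ranked by Il1a, Tnf, Ccl3 and Ccl4, inflammatory cytokine genes, 10 of 31 members were higher and 2 lower in the upper tertile, where 15.5% of 3913 genes were higher and 12% lower. The higher members were Hk1, Hk2, Pfkp, Bnip3, Egln1, Egln3, Ero1l, P4ha1, Ankrd37 and Hilpda. Hilpda went from 801 to 2299 CPM in 4T1P and from 905 to 2341 CPM in 4T1M, and Hk2 from 57.6 to 181 CPM and from 88.9 to 196 CPM. P4ha1, a collagen prolyl hydroxylase, had log2 ratios of 0.93 and 0.96. Slc2a3 and Pfkfb4 were the lower pair. Slc2a3 went from 431 to 176 CPM and from 307 to 117 CPM, ratios of -1.30 and -1.40, and Pfkfb4 from 88.8 to 24.1 CPM and from 58.8 to 20.7 CPM. Summed neutrophil markers fell along this range from 234381 to 103185 CPM and from 223444 to 76522 CPM. Carcinoma and epithelial markers went from 196 to 25.5 CPM in 4T1P and from 15.55 to 23.1 CPM in 4T1M. With cells thinned, 3 members were higher and 2 lower, and without the deepest 5% of cells 5 were higher and 3 lower.

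Ranked by Retnlg, Prok2 and Wfdc17, genes of mature neutrophils, the same pair lay on the other side. Of 31 members 3 were higher and 5 lower, where 6.01% of 4077 genes were higher and 27.3% lower. The members' medians were -0.16 in 4T1P and -0.26 in 4T1M, beside -0.32 and -0.31 for all genes. Members were thus lower less often than genes at large. Slc2a3 went from 150 to 382 CPM in 4T1P and from 128 to 278 CPM in 4T1M, Slc16a3 from 500 to 792 CPM and from 373 to 623 CPM, and Pfkfb4 had log2 ratios of 0.68 and 1.11. The lower members were Hk2 (-0.94 and -1.24), Bnip3l, P4ha1, Ndrg1 and Ankrd37 (-0.83 and -1.41). Relative to the median gene the counts were 5 higher and 2 lower, with cells thinned 1 and 3, and with stricter classes 2 and 2. Under stricter classes P4ha1 and Ndrg1 turned to 0.19 and 0.41 in 4T1P. Without the deepest cells 1 member was higher and 5 lower. Summed neutrophil markers went from 128030 to 240249 CPM and from 89239 to 221444 CPM along this range. Carcinoma and epithelial markers went from 231 to 11.1 CPM in 4T1P and from 23.2 to 11.6 CPM in 4T1M. The share of Slc2a3 in transporter UMIs went from 24.4% through 40.2% to 47.9% in 4T1P and from 23.5% through 29.0% to 45.4% in 4T1M along this set. Along the inflammatory set it went from 54.9% through 37.9% to 22.7% and from 48.4% through 31.0% to 20.9%, and the share of Hk2 in hexokinase UMIs from 31.6% to 46.6% and from 42.2% to 55.4%. Each of these sequences was monotonic in both libraries.

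Ranked by the granule genes Camp, Ltf, Ngp and Lcn2, which mark younger neutrophils, 0 of 31 members were higher and 13 lower, where 7.3% of 4109 genes were higher and 23.9% lower. The members' medians were -0.52 and -0.49 beside -0.34 and -0.29 for all genes. Relative to the median gene 4 members were lower, with cells thinned 2 were, and without the deepest cells 1 was. Among the 13 were Hk2 with -0.97 and -1.26, P4ha1 with -1.09 and -1.05, and Slc2a1 with -0.89 and -0.79. Ranked by the interferon-stimulated genes Ifit1, Ifit3, Rsad2 and Isg15, 2 members were higher, Hk1 (1.21 and 0.54) and Hk2 (0.83 and 0.56), and 0 were lower, where 7.27% of 4018 genes were higher and 8.24% lower. With cells thinned 0 were higher and 1 lower, without the deepest cells 1 and 1, and with stricter classes 5 and 1, so the count for this set depends on the treatment of the cells. Ranking by depth alone gave 0 higher and 10 lower, where 10.2% of 4367 genes were higher and 16.7% lower.

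To describe how members varied together within a class, cells were also ranked by Bnip3, Egln3, Ndrg1 and Ankrd37, a set chosen after their values were seen, and the other 29 members were read. In neutrophils 24 of the 28 counted were higher in the upper tertile in both libraries and 0 lower, where 21.2% of 4062 genes were higher and 14.2% lower. Pdk1 or Adm, both left out along the sets above, is among these 28. A member so scarce can pass the minimum through its upper tertile and adds no weight to the count. In macrophages 24 of 28 were higher and 0 lower, where 7.45% of 7340 genes were higher and 13.1% lower. The members' medians were 1.62 and 1.59 in neutrophils, beside 0.19 and 0.11 for all genes, and 1.39 and 1.26 in macrophages, beside -0.13 and -0.15.

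In neutrophils Ldha, lactate dehydrogenase A, went from 694 to 2201 CPM in 4T1P and from 641 to 2056 CPM in 4T1M, log2 ratios of 1.67 and 1.68. Ero1l went from 271 to 2631 CPM and from 332 to 2191 CPM, ratios of 3.28 and 2.72. Triosephosphate isomerase Tpi1 had ratios of 2.54 and 2.27, the liver-type phosphofructokinase Pfkl of 2.59 and 2.04, and Slc2a1 of 1.89 and 1.70. Summed neutrophil markers went from 256343 to 116750 CPM and from 214089 to 91614 CPM along the same range, and their part in these ratios was not tested. In macrophages Slc2a1 had ratios of 2.82 and 2.34, Ero1l of 2.94 and 2.80, Pgk1 of 1.66 and 1.65, and Ldha of 1.07 and 1.04. Median depth of these macrophages went from 3109.5 to 11020 UMIs and from 3561 to 8553 UMIs, and their summed macrophage markers from 49642 to 29556 CPM and from 46148 to 26100 CPM. Ranked within 5 classes of depth, 24 of 28 macrophage members counted were again higher. With cells thinned to 1000 UMIs 21 of the 21 macrophage members still counted were higher. The thinned cells kept their ranks from the full counts, so the tertiles still differed in original depth.

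The members that stayed apart without thinning were nearly the same in both classes. Pfkfb4 had ratios of -0.46 and -0.18 in neutrophils and -0.57 and -0.05 in macrophages, Hk3 of 0.70 and 0.16 and of 0.06 and -0.04, and Hif1a of 0.71 and 0.42 and of 0.22 and 0.21. Slc16a3 differed between the classes in this respect. It had ratios of -0.14 (-0.32 to 0.05) and -0.17 (-0.29 to -0.04) in neutrophils and of 1.96 (1.62 to 2.31) and 1.39 (1.15 to 1.64) in macrophages. Hk2 in macrophages had ratios of 0.68 and 0.37. In thinned macrophages all 21 members counted were higher. Any of Pfkfb4, Hk3, Hif1a and Hk2 still counted there thus did not stay apart.

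**Figure D5:**
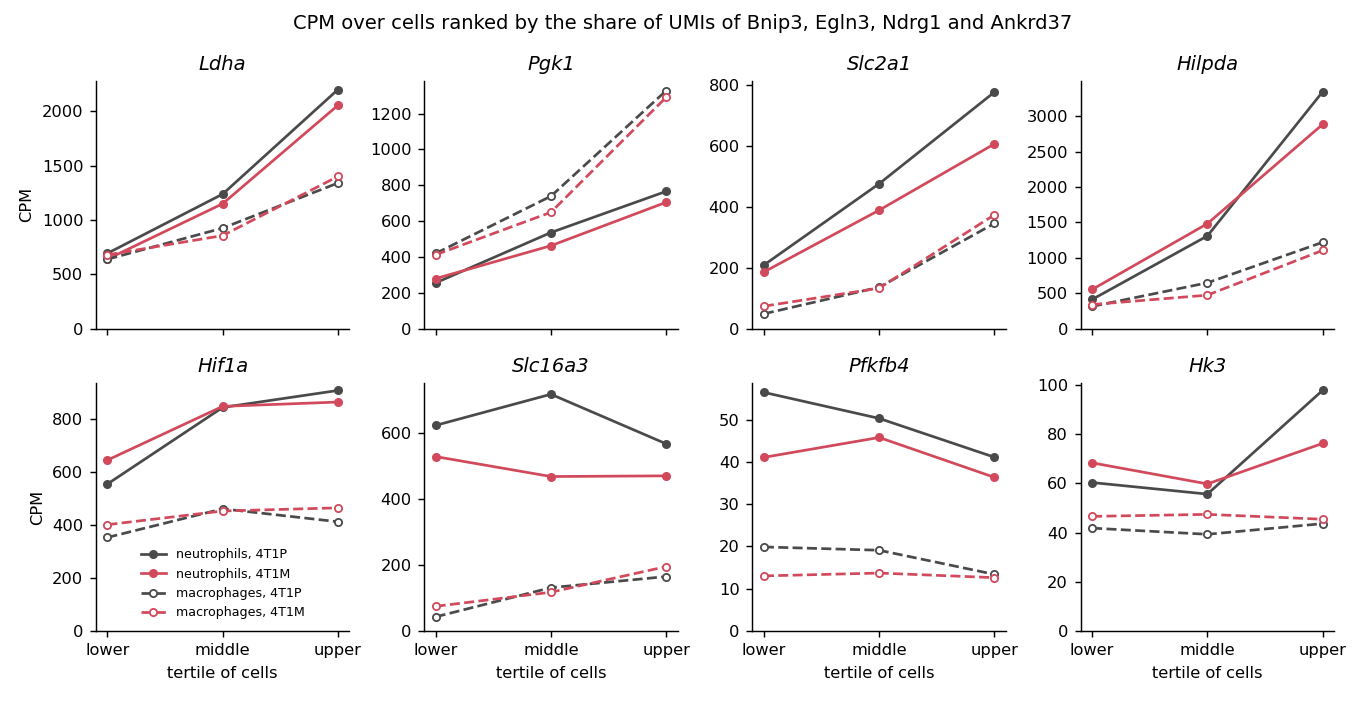
CPM (linear axis from 0) of 8 members in the lower, middle and upper tertile of cells ranked by Bnip3, Egln3, Ndrg1 and Ankrd37, for neutrophils (solid) and macrophages (dashed) of 4T1P (dark) and 4T1M (red). Ldha in neutrophils climbs from 694 to 2201 and from 641 to 2056 CPM, while Slc16a3 in neutrophils is at 624 and 529 CPM in the lower and 568 and 470 CPM in the upper tertile.

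The class rule leaves out neutrophils with little S100a8 and S100a9. Cells under the S100 limit in which 9 other neutrophil genes held at least 0.3% of UMIs numbered 95 in 4T1P and 404 in 4T1M, with a median of 2546 and 2373.5 UMIs. Their Hilpda level was 3781 CPM against 1508 in the neutrophils of the rule in 4T1P, and 2867 against 1578 in 4T1M. Ero1l stood at 2516 against 1116 CPM and at 1600 against 1135, Bnip3 at 1014 against 538 and at 813 against 586, and Ankrd37 at 170 against 54.3 and at 104 against 59.1. Slc2a3, Slc16a3, Pfkfb4 and Hif1a were lower in these cells in both libraries. Slc2a3 stood at 199 against 292 CPM and at 140 against 196, and Pfkfb4 at 22.1 against 50.3 and at 21.9 against 41.3. Hif1a stood at 712 against 740 CPM and at 540 against 781. S100a8 and S100a9 held 65996 and 92881 CPM in 4T1P neutrophils, and the part of their low level in these differences was not tested. No median over all genes was taken for these cells. Hilpda, Ero1l, Bnip3 and Ankrd37 were higher and Slc2a3 and Pfkfb4 lower in these cells, as in the upper tertile of the inflammatory range. Other members did not share this likeness. Ndrg1 (443 against 137 CPM and 275 against 193) and Slc2a1 (668 against 449 and 428 against 383) were higher in these cells. Neither was among the members counted as higher along that range, nor were Slc16a3 and Hif1a among the lower. The cells lie outside the counts for neutrophils, except where they are said to be added.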

How the data were processed

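GR1+ cells of 1 pooled 4T1P and 1 pooled 4T1M tumour suspension were profiled by droplet single-cell RNA sequencing. Per the labels and matrix headers the deposited counts are raw UMIs of each gene in each barcode, which the authors obtained on mm10 with Cell Ranger 4.0.0. A later release is named in the methods, so the release is uncertain. No doublet caller was run here, and the effect of the deepest 5% of cells was tried instead. No per-sample column was left unused.

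Barcodes were filtered and classed as the report gives, and the UMIs of a gene were added up per class and library and scaled by the class total to give CPM. Genes with at least 100 UMIs over both sides of a comparison were counted, with 0.5 UMI added to each side for counts past the limit and for medians. Each CPM carries an exact Poisson 95% interval, each ratio an exact conditional binomial one and each share a Clopper-Pearson one. UMIs in cells of a library are not independent animals, and the study's test across cells was not used. Shares of cells with a UMI were read at 1000 UMIs per cell, which left out 0 and 4 neutrophils and 26 and 37 macrophages. Tertiles were taken on the share of UMIs from each marker set, on the full counts also where cells were thinned.

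All 33 members are named, and of the other pathway genes those with the 3 highest and 3 lowest ratios in each class. The members and lists were chosen with earlier results of these data known. Alternatives were TMM scaling (edgeR 4.0.16) and DESeq2 1.42.0 size factors, used for scaling alone, a gene minimum of 10 UMIs, a mitochondrial limit of 5%, stricter classes (S100 share at least 5% with C1q and Apoe under 0.2%, macrophage share at least 1%), thinning, and leaving out cells with an epithelial UMI or the deepest 5%. Adding neutrophils with little S100a8 and S100a9, all alternatives of the tertiles and the ranking by 4 hypoxia targets were chosen after seeing the data. Scripts ran in Python 3.11.15 (numpy 2.4.6, scipy 1.17.1, pandas 2.3.3) and R 4.3.3 and were tested on simulated counts.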

Additional observations from a re-analysis of the deposited data

Results flagged for a closer look

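For 2 members neutrophils and macrophages differed in opposite directions between the tumour lines, with counting intervals on opposite sides of 0. Ndrg1 had a log2 ratio of 4T1M over 4T1P of 0.49 in neutrophils and -0.24 in macrophages. Hilpda had 0.07 in neutrophils and -0.27 in macrophages. Its neutrophil interval of 0.01 to 0.12 holds 0.04, the median of all genes counted in neutrophils. The share of all genes with intervals on opposite sides of 0 was not taken, so the count of 2 has no background. The difference between the classes was not tested, since each line is 1 library. Over the alternatives Ndrg1 ranged from 0.23 to 0.49 in neutrophils and from -0.45 to -0.20 in macrophages, and Hilpda from -0.07 to 0.07 and from -0.42 to -0.10.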

How the results depend on the processing

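No paired analysis was possible because each line is 1 library. In neutrophils the 1 member higher in 4T1M than in 4T1P was 0 under TMM, DESeq2 scaling, stricter classes, thinning, without epithelial or the deepest cells, and with low-S100 neutrophils added. In macrophages 2 members were higher and 0 lower under either scaling, 1 was higher at the 5% mitochondrial limit, 2 were lower with stricter classes or without epithelial cells, and 0 without the deepest. Of macrophages over neutrophils in 4T1P, where 2 members were higher and 11 lower, TMM gave 0 and 20 with a median of -1.48, DESeq2 0 and 24 with -1.63, the 5% limit 7 lower, thinning 1 higher, and low-S100 neutrophils a median of -0.82. In 4T1M, where 0 were higher and 11 lower, TMM gave 22 lower with -1.44, DESeq2 27 with -1.55, the 5% limit 1 higher, and thinning a median of -0.87.

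Across tertiles of neutrophils, the granule set's 13 lower members became 4 relative to the median gene, 2 thinned and 1 without the deepest cells. The interferon set's 2 higher and 0 lower became 5 and 1 with stricter classes, 0 and 1 thinned, and 1 and 1 without the deepest. The mature set's 3 higher and 5 lower became 5 and 2 relative to the median gene, 1 and 3 thinned, with 3 lower within 5 classes of depth, 2 lower with stricter classes and 1 higher without the deepest. The inflammatory set's 10 higher became 3 thinned and 5 without the deepest. In macrophages, 1 member was lower along the Arg1 set at the 5% limit. The Cxcl9 set's 1 higher and 9 lower became 0 and 0 thinned, with 1 lower at the 5% limit. The resident set's 13 lower became 5 with stricter classes and 8 thinned, and the antigen set's 19 became 8 thinned. The ranking by hypoxia targets kept counts within 1.5 times of 24 in both classes.

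Of the members' tertile ratios past the limit, 9 turned direction. In 4T1P these were P4ha1 at 0.19 and Ndrg1 at 0.41 along the mature set with stricter classes, Egln3 at 0.016 along the Cxcl9 set and Pfkfb3 at -0.16 along the hypoxia targets at the 5% limit, and, thinned, Slc2a1 at 0.32 and Hk3 at -0.28 along the Cxcl9 set, Egln3 at 0.10 along the resident set and Pfkp at -0.10 along the Arg1 set. In 4T1M Pfkp was at -0.026 there. The cause was not tested. Ratios near 0 between libraries changed sign more often, in neutrophils for Eno1 and Mxi1 in 7 of 9 alternatives each, Ero1l in 5 and Hilpda in 2. Depth limits Adm, Pdk1 and, in macrophages, Slc2a3, which rest on few UMIs.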
